A study of Rattus norvegicus with 12 samples.

Results

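Heme synthesis, heme breakdown and ferritin storage were examined through 10 genes in the renal cortex of rat kidney grafts. The genes were Alas1, Urod, Cpox and Fech of synthesis, Hmox1, Hmox2, Blvra and Blvrb of breakdown, and Fth1 and Ftl1 of ferritin. A probe set, the group of short oligonucleotides that reads 1 transcript on the array, was taken as a member when its platform annotation named 1 of these genes and no other gene. This gave 8 probe sets of 31099, with 1 probe set for each of 8 genes, of 14217 genes that have a probe set of their own. Fth1 and Ftl1 were listed only on probe sets that carry several gene symbols, so ferritin itself has no value here. All 8 probe sets passed the filter on low signal that was applied to the whole table.

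The arrays came from 12 rat kidney grafts labelled male, 1 array per graft, all in wild-type recipients. In 6 grafts the kidney was wild type, and in 6 it was ABCC2-/-, lacking MRP2. MRP2, encoded by Abcc2, is an apical export pump of the proximal tubule that carries organic anions such as glutathione and glucuronide conjugates, bilirubin glucuronides among them. The series asks what follows for a renal graft when this pump is missing in the kidney alone. Because every recipient was wild type, blood and infiltrating cells of the recipient carried an intact Abcc2 in both groups. The strain, the age, the time after transplantation and the number of donors are not given in the sources used here, and the p-values therefore reflect only how these grafts varied. In bulk cortex, fewer cells of a type and less RNA per cell cannot be told apart.

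Heme is built in a path that starts and ends in mitochondria. ALAS1 makes the first precursor and sets the rate outside the erythroid lineage, UROD and CPOX modify the porphyrin ring, and FECH inserts the iron. Heme oxygenases open the ring and release biliverdin, carbon monoxide and iron. HMOX1 is the form induced by heme and oxidative stress, through the transcription factor NRF2 and release of the repressor BACH1, and HMOX2 is the constitutive form. Biliverdin reductases A and B make bilirubin, and ferritin stores the iron that is set free. In the kidney HMOX1 is known as an early responder of the proximal tubule to injury and to filtered heme proteins.

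Some facts about the arrays bear on every value below. Abcc2 itself lay between 0.787 and 0.987 in wild-type and between 0.0387 and 0.213 in ABCC2-/- grafts, so the labels were borne out on all 12 arrays. The arrays fell into a pair of sets, which are the first 3 listed grafts of each genotype (array set 1) and the last 3 (array set 2). The labels do not say what distinguishes them. With genotype in the fit, 30.3% of the 18625 tested probe sets differed between the sets at an adjusted p under 0.05. The signal ratio of the 3′ to the 5′ probe sets of Gapdh, a measure of how complete the labelled RNA is, lay between 1.28 and 1.37 in the ABCC2-/- grafts of set 2 and between 1.64 and 1.93 on all other arrays. Over all arrays it was 1.77 ± 0.088 (SD, n = 6) in wild-type and 1.56 ± 0.288 (SD, n = 6) in ABCC2-/- grafts, with an exact two-sided permutation p of 0.139 and 0.208 after adjustment over 3 array measures. The ABCC2-/- arrays of set 2 were also brighter, with a median log2 signal between -1.668 and -1.573. On all other arrays this median lay between -1.767 and -1.705. For its genotype difference the same permutation test gave a p of 0.0996, and 0.208 after adjustment. All 10 proximal tubule markers and all 8 markers of the nephron beyond it passed the signal filter. The filter keeps every probe set at or above the 40th percentile of mean signal, so this does not test the label of cortex.

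No member passed the threshold for a genotype difference. In limma with Benjamini-Hochberg adjustment over all tested probe sets, 0 of 8 members had an adjusted p under 0.05, a level that 0.0215% of all tested probe sets reached. At an unadjusted p under 0.05 there were 3 of 8, against 7.98% of all probe sets. Of these, Hmox1 and Hmox2 were higher, as were 3.35% of all probe sets, and Cpox was lower, as were 4.63%. No other tool was run for this comparison. The median log2 difference, ABCC2-/- minus wild type, was 0.075 over the 8 members and -0.023 over all tested probe sets. The difference was positive in 62.5% of the members and in 45.35% of all tested probe sets. None of the 8 was without overlap between the 6 and 6 arrays, which held for 0.435% of all probe sets. When the array set was added to the fit as a block, 1 member, Hmox1, passed at an adjusted p under 0.05, as did 0.601% of all probe sets, 0.204% in its direction of higher signal.

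**Figure D1:**
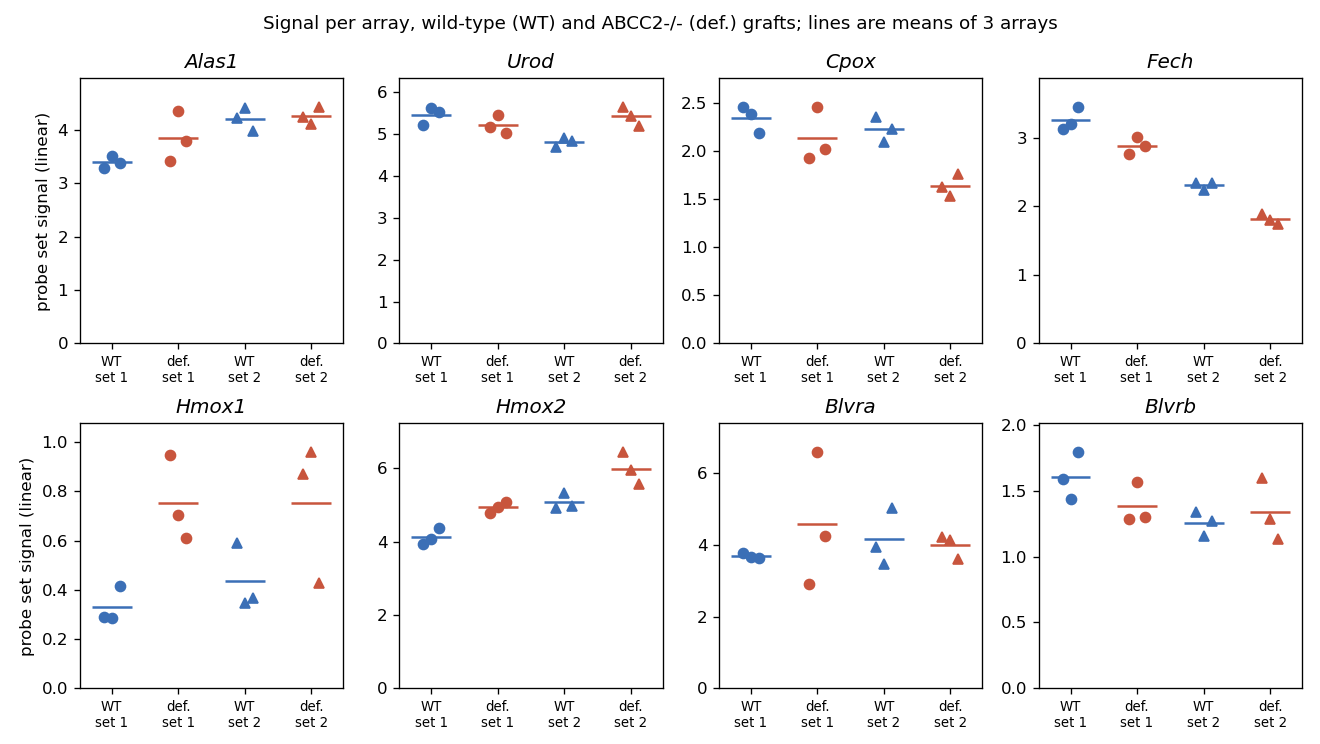
Probe set signal on a linear scale (vertical axis, 1 panel per gene) for each of the 12 arrays, by graft genotype and array set, with lines at the mean of 3 arrays. Hmox1 was higher in 5 of the 6 ABCC2-/- grafts than in any wild-type graft, and Fech fell into 4 levels ordered by array set and genotype.

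Hmox1 had the largest difference of the members. Its signal in wild-type grafts had a lowest value of 0.286, a median of 0.356 and a highest of 0.592. In ABCC2-/- grafts these were 0.430, 0.787 and 0.961. Only ABCC2-/- replicate 14, at 0.430, fell into the wild-type range, and the highest wild-type graft was replicate 4. The means were 0.382 ± 0.113 (SD, n = 6) and 0.754 ± 0.211 (SD, n = 6). The difference was 1.96-fold (95% interval 1.44 to 2.68), or 0.97 on the log2 scale with a standard error (SE) of 0.21 and an adjusted p of 0.465. It stood in place 12 of 18625 by unadjusted p (3.00e-04), and 0.252% of all probe sets differed by at least as much in either direction. The signal was dim, with a mean log2 value of -0.95, and the probe set was removed when the filter was raised to the 60th percentile of mean signal.

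The Hmox1 difference was seen in both array sets. In set 1 the wild-type grafts had 0.290, 0.286 and 0.414 and the ABCC2-/- grafts 0.949, 0.703 and 0.610, without overlap. In set 2 the wild-type grafts had 0.592, 0.346 and 0.366 and the ABCC2-/- grafts 0.871, 0.961 and 0.430, which overlap. The log2 differences were 1.19 (SE 0.21) in set 1 and 0.75 (SE 0.30) in set 2, with adjusted p of 0.126 and 0.147, and the test of their difference gave an adjusted p of 0.621. With the array set as a block the adjusted p over all 12 arrays was 0.0462. That call did not survive most omissions of an array: it was lost in 11 of 12 such fits with the block, with adjusted p up to 0.121, and kept only without ABCC2-/- replicate 14 (0.0231). With the Gapdh ratio as a covariate the difference was 1.00 (SE 0.24, adjusted p = 0.916), so its size did not fall when this measure was in the fit. With block and ratio together the difference was 1.16 and the adjusted p 0.186.

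Hmox2 was higher in ABCC2-/- grafts by a smaller amount, and it was the member in which both array sets separated the genotypes upward. Across all arrays the wild-type values ran from 3.94 through a median of 4.64 to 5.33, and the ABCC2-/- values from 4.78 through 5.32 to 6.45, so that 3 of 6 ABCC2-/- grafts lay above every wild-type graft. In set 1 the wild-type grafts had 3.94, 4.09 and 4.36 and the ABCC2-/- grafts 4.78, 4.95 and 5.08. In set 2 they had 4.92, 5.33 and 4.97 against 6.45, 5.94 and 5.56. Of all tested probe sets 1.0% were higher without overlap in both sets in this way. The log2 difference was 0.25 (SE 0.10, adjusted p = 0.612), a 1.19-fold difference, and its adjusted p with the block was 0.0603. The array set moved Hmox2 by a like amount, 0.29 on the log2 scale (SE 0.06, adjusted p = 0.00132), with set 2 higher. With the Gapdh ratio as a covariate in place of the block the genotype difference was 0.13 (SE 0.09), and with block and ratio together it was 0.24 (adjusted p = 0.266).

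Relative to Hmox2 on the same array, Hmox1 was higher in ABCC2-/- grafts. The log2 ratio of both signals, centred on its mean over the 12 arrays, was -0.36 ± 0.34 (SD, n = 6) in wild-type and 0.36 ± 0.46 (SD, n = 6) in ABCC2-/- grafts, and the ranges overlapped (-0.68 to 0.21 and -0.43 to 0.93). This comparison of the inducible with the constitutive oxygenase is a description, with no test.

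The sequence before the start of Hmox2 is shown because Hmox2 was higher without overlap in both array sets. The RefSeq table of build GRCr8 lists a pair of starts for this gene on the minus strand. The 250 bases before each are given 5′ to 3′, with capitals at matches to the antioxidant response element core TGACNNNGC, which NRF2 with a small MAF partner recognises, and to the GC box GGGCGG of the SP1 family, searched on both strands.
Hmox2 at chr10:11337613-11337862: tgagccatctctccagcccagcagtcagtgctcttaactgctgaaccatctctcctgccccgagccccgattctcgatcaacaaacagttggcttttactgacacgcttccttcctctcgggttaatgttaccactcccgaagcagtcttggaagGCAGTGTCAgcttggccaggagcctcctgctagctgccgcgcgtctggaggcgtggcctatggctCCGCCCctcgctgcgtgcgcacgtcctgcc
Hmox2 at chr10:11318801-11319050: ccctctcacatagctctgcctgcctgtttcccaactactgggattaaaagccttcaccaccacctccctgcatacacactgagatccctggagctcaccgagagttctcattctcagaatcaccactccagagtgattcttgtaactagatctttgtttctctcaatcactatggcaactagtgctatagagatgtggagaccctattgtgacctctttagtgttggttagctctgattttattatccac
The window of the upstream start holds the element core on the opposite strand, 95 to 87 bases before the start, and a GC box 30 to 25 bases before it. These matches do not overlap each other. The E-box CACGTG, the CCAAT box, the TATA box TATAAA and the GATA site AGATAA were also searched, and neither window held a match. Among all 33469 windows of this length 10.08% hold the element core and 30.47% the GC box. Of the 7 windows listed for 6 of the members, 2 hold the core and 4 the GC box. Hmox1 and Cpox had no listed window. A match is a description of the letters, and the array does not tell from which start a transcript came.

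The biliverdin reductases showed no difference beyond the spread between grafts. Blvra, which reduces the main biliverdin isomer of the adult, ran from 3.47 through a median of 3.72 to 5.02 in wild-type and from 2.92 through 4.18 to 6.58 in ABCC2-/- grafts. The highest graft in each group, wild-type replicate 8 and ABCC2-/- replicate 9, stood well above the others of its genotype. The log2 difference was 0.096 (SE 0.15, 95% interval -0.23 to 0.42, adjusted p = 0.824), and without ABCC2-/- replicate 9 it was -0.038. Blvrb, which also acts as a flavin reductase, ran from 1.16 through 1.39 to 1.79 and from 1.14 through 1.29 to 1.60, so that nearly all grafts shared 1 range. Its log2 difference was -0.069 (SE 0.12, 95% interval -0.32 to 0.19, adjusted p = 0.841), and it was negative in set 1 (-0.22) and positive in set 2 (0.080).

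**Figure D2:**
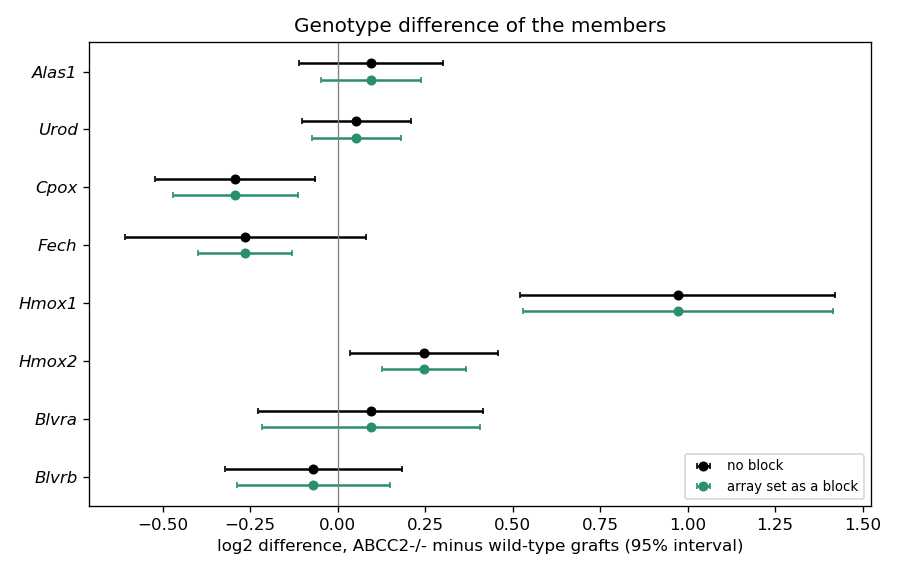
Log2 difference of the members, ABCC2-/- minus wild-type grafts (horizontal axis), with 95% intervals of the fit, without (black) and with (green) the array set as a block. The interval of Hmox1 runs from 0.52 to 1.42, and with the block those of Hmox1, Hmox2, Cpox and Fech lie on 1 side of 0.

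Of the synthesis enzymes, Cpox had the lowest p. CPOX converts coproporphyrinogen in the mitochondrial intermembrane space. Its signal ran from 2.10 through a median of 2.29 to 2.45 in wild-type grafts and from 1.53 through 1.84 to 2.46 in ABCC2-/- grafts. In 5 of 6 ABCC2-/- grafts it was below every wild-type graft, and ABCC2-/- replicate 9, at 2.46, was above all of them. The log2 difference was -0.29 (SE 0.11, adjusted p = 0.606), or 1.22-fold lower, with an adjusted p of 0.0967 with the block. With the block and 1 array left out, Cpox did not pass in 11 of 12 fits, with adjusted p up to 0.179. It passed only without ABCC2-/- replicate 9 (0.0428). The difference was uneven between the array sets. In set 1 the wild-type grafts had 2.45, 2.39 and 2.19 and the ABCC2-/- grafts 1.93, 2.46 and 2.03 (log2 difference -0.14, SE 0.11). In set 2 they had 2.35, 2.10 and 2.23 against 1.63, 1.53 and 1.76 (log2 difference -0.45, SE 0.11, adjusted p = 0.0306), without overlap. In that set alone 2.71% of all probe sets passed with lower signal, and its ABCC2-/- grafts are those with the low Gapdh ratio. The difference between the sets in this effect had an adjusted p of 0.285. With the ratio as a covariate over all arrays Cpox had -0.16 (SE 0.10), and with block and ratio together -0.21 (adjusted p = 0.475).

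Fech, the last enzyme of the path, varied more with the array set than with the genotype. In set 1 the wild-type grafts had 3.12, 3.20 and 3.45 and the ABCC2-/- grafts 2.77, 3.01 and 2.87. In set 2 the wild-type grafts had 2.35, 2.24 and 2.34 and the ABCC2-/- grafts 1.90, 1.79 and 1.74. The ABCC2-/- grafts were thus the lower ones within each set, without overlap, a pattern shared by 2.57% of all probe sets, while the wild-type grafts of set 2 lay below all ABCC2-/- grafts of set 1. The difference of set 2 from set 1 was -0.58 on the log2 scale (SE 0.06, adjusted p = 1.88e-05). The genotype difference was -0.26 on the log2 scale, with an SE of 0.16 and an adjusted p of 0.638 without the block and an SE of 0.06 and an adjusted p of 0.0624 with it. With the Gapdh ratio as the covariate it was -0.011 (SE 0.13), and with block and ratio together -0.21.

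Alas1 and Urod showed no genotype difference that exceeded the spread. Alas1 ran from 3.29 through a median of 3.75 to 4.42 in wild-type and from 3.41 through 4.17 to 4.43 in ABCC2-/- grafts, nearly the same range. Its log2 difference was 0.096 (SE 0.097, 95% interval -0.11 to 0.30, adjusted p = 0.732). The array set separated its wild-type grafts, at 3.29, 3.51 and 3.38 in set 1 and 4.23, 4.42 and 3.98 in set 2, and the set difference over both genotypes was 0.23 (SE 0.07, adjusted p = 0.0164). Urod, which removes carboxyl groups from uroporphyrinogen, ran from 4.70 through 5.07 to 5.62 in wild-type and from 5.02 through 5.32 to 5.66 in ABCC2-/- grafts. Its log2 difference was 0.054 (SE 0.074, 95% interval -0.10 to 0.21, adjusted p = 0.793). Within set 2 all 3 ABCC2-/- grafts, at 5.66, 5.44 and 5.19, lay above the wild-type grafts, at 4.70, 4.92 and 4.83, and within set 1 the groups overlapped. These ABCC2-/- arrays of set 2 are also the ones with the higher median signal. With each array centred on its median, the Urod difference over all arrays was -0.0022. For Urod the test of a set-dependent difference gave an unadjusted p of 0.0282 and an adjusted p of 0.212.

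Between the array sets 3 of 8 members differed at an adjusted p under 0.05, Fech with lower and Hmox2 and Alas1 with higher signal in set 2, where 19.0% of all probe sets passed with lower and 11.3% with higher signal. Hmox1 had a set difference of 0.16 (SE 0.21, adjusted p = 0.609), smaller than its genotype difference. The test of whether the genotype difference depends on the set was passed by 0 of 8 members in limma, against 2.54% of all probe sets, and 1 member, Urod, had an unadjusted p under 0.05, against 18.2%.

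**Figure D3:**
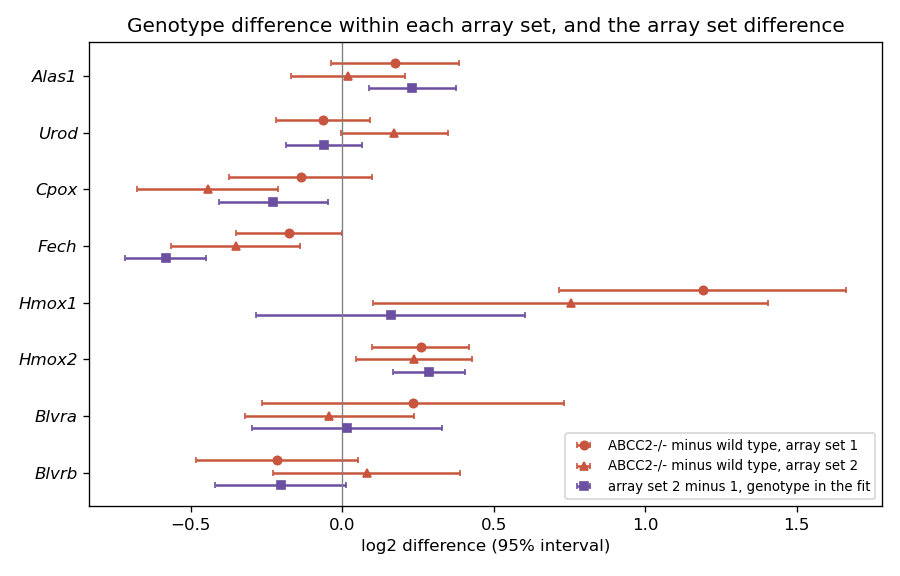
Log2 differences with 95% intervals (horizontal axis) for each member: ABCC2-/- minus wild type in array set 1 (circles) and array set 2 (triangles), and array set 2 minus 1 with genotype in the fit (squares). Hmox1 and Hmox2 were positive and Cpox and Fech negative in both sets, and the set difference of Fech, -0.58, exceeded its genotype differences of -0.18 and -0.35.

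No other listed gene of heme synthesis or of the mitochondrial supply of its parts passed. Of 13 tested genes 0 passed in limma, 0 had an unadjusted p under 0.05, and the log2 differences were positive in 6 and negative in 7 (median -0.026, against -0.023 over all probe sets). The lowest p belonged to Tmem14c, a porphyrinogen carrier of the mitochondrial inner membrane, at 0.23 (SE 0.13), and Abcb6, a porphyrin transporter, at -0.30 (SE 0.18). Alas2, the erythroid isoform of the first enzyme, had -0.24 (SE 0.26). With the block 0 of these 13 passed, while 7 differed between the array sets, against 30.3% of all probe sets.

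In the list of other genes that carry or scavenge heme or bilirubin, none passed either. Abcc2, whose lower signal is given above (adjusted p = 8.35e-06 in limma), was not in that list. Of 9 tested genes 0 passed, and 2 had an unadjusted p under 0.05, both lower, against 4.63% of all probe sets. The differences were positive in 4 and negative in 5 (median -0.078). Flvcr1, a heme exporter of the plasma membrane, had -0.62 (SE 0.19, adjusted p = 0.606), with -0.66 in set 1 and -0.59 in set 2. Ambp, the precursor of the heme-binding plasma protein alpha-1-microglobulin, had -0.71 (SE 0.31, adjusted p = 0.614). Both signals were dim, with wild-type and ABCC2-/- means of 0.539 and 0.359 for Flvcr1 and 0.254 and 0.164 for Ambp. The lowest ABCC2-/- value of Ambp, 0.0656, was under 0.0694, the value to which low signals were raised. The plasma scavengers Hpx and Hp and the macrophage haptoglobin-hemoglobin receptor Cd163 were under the signal filter.

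The genes of iron supply and ferritin control gave no call. Of 12 tested 0 passed, 0 had an unadjusted p under 0.05, and 4 differences were positive and 8 negative (median -0.056). Ncoa4, the cargo receptor that delivers ferritin for breakdown, had -0.19 (SE 0.09), and Ireb2, an iron-regulatory protein that represses ferritin translation, had -0.29 (SE 0.15). The transferrin receptor Tfrc stood at 0.015 (SE 0.17). These messages do not replace a value for ferritin.

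Among known regulators of the members, 0 of 10 tested genes passed. Of these 10, 2 had an unadjusted p under 0.05, both lower, against 4.63% of all probe sets. Hsf1, the heat shock factor, named for its low p, had -0.41 (SE 0.11, adjusted p = 0.606), and every ABCC2-/- graft lay below every wild-type graft. Of all probe sets 0.435% were without overlap in either direction. Ppargc1a, a coactivator that raises Alas1 in fasting liver, had -0.37 (SE 0.13, adjusted p = 0.606). Nfe2l2, which encodes NRF2, stood at 0.074 (SE 0.08), its inhibitor Keap1 at -0.080 (SE 0.13), and the Hmox1 repressor Bach1 was under the signal filter. The list median was -0.13, with 3 positive and 7 negative differences.

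Among the 5 pathway lists, that of other NRF2 targets held the genes whose differences were nearest in size to that of Hmox1. Genes outside the lists were not ranked in this way, and 0.252% of all tested probe sets differed by at least the Hmox1 fold. Of 16 tested genes 0 passed without the block. An unadjusted p under 0.05 was reached by 5, all higher, against 3.35% of all probe sets. The differences were positive in 11 and negative in 5 (median 0.12). The list includes genes that earlier results of these arrays had singled out, so its direction is not independent evidence. Gsta3, a glutathione S-transferase, had 0.93 (SE 0.17, adjusted p = 0.161), and Gstp1, of the pi class, 0.79 (SE 0.19, adjusted p = 0.560). With the block 3 passed, all higher, against 0.204% of all probe sets. These were Gsta3 (adjusted p = 0.0318), Gstp1 (0.0386) and Akr1b8 (0.0386), an aldo-keto reductase. The remaining 2 with an unadjusted p under 0.05 were Ephx1, the microsomal epoxide hydrolase, at 0.28 (SE 0.09), and Abcc4, the export pump MRP4, at 0.31 (SE 0.12). Other genes used as readouts of this factor differed in sign. Nqo1, a quinone reductase, stood at 0.28 (SE 0.15), Gclc, the catalytic subunit of glutathione synthesis, at -0.050 (SE 0.21), and Txnrd1, thioredoxin reductase, at -0.21 (SE 0.15).

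**Figure D4:**
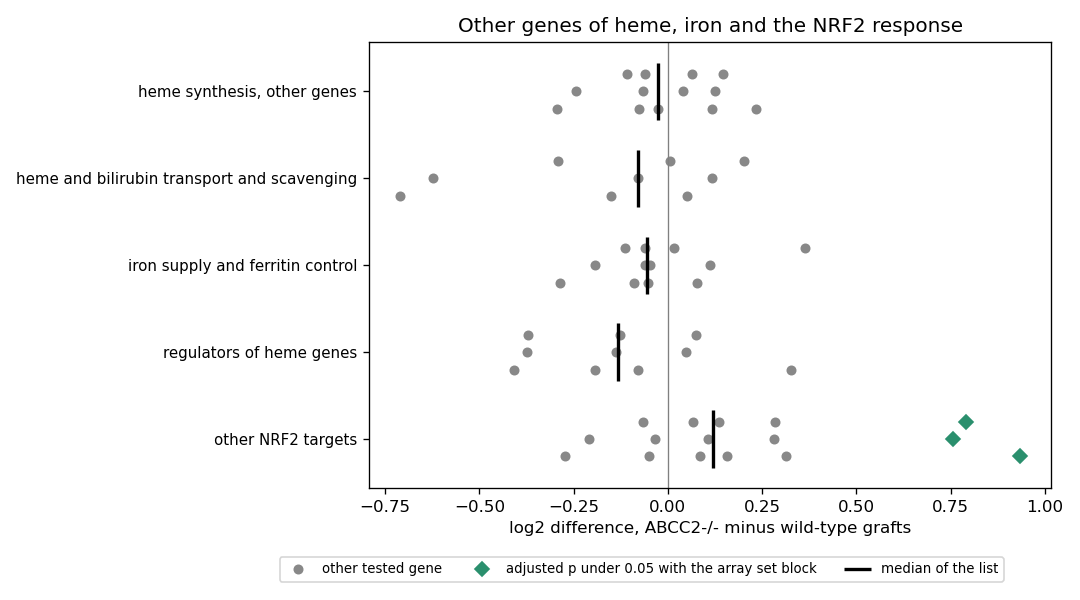
Log2 difference, ABCC2-/- minus wild-type grafts, of each tested gene (points) in 5 lists, with the list median (black bar). Green diamonds mark the 3 genes with an adjusted p under 0.05 with the array set block, all in the list of other NRF2 targets, where the median is 0.12.

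Markers of cells that could bring their own Hmox1 or heme enzymes are given beside these values, and their part in the results was not tested. Of 17 macrophage and other myeloid markers 15 had a probe set and 13 passed the signal filter, with 11 positive and 2 negative differences (median 0.11) and 0 past the threshold. The summed linear signal of the 15 lay between 43.4 and 56.1 in wild-type and between 44.8 and 67.9 in ABCC2-/- grafts. Lyz2 alone had means of 25.9 and 28.7, so this sum mostly follows the brightest markers. In set 1 the ranges were 43.4 to 51.5 and 44.8 to 54.9, which overlap. In set 2 they were 54.5 to 56.1 and 57.6 to 67.9, so that the summed signal was higher in all 3 ABCC2-/- grafts than in any wild-type graft. Among single markers in set 2, the log2 difference was negative for Csf1r (-0.032), Adgre1 (-0.069) and Cybb (-0.14). It was positive for all other tested myeloid markers, with Lyz2 at 0.15 and Mrc1 highest at 0.43. Of these 13 markers 8 differed between the array sets at an adjusted p under 0.05, against 30.3% of all probe sets. Mrc1, the mannose receptor of tissue macrophages, had 0.38 (SE 0.15), and the defining markers Cd163 and Itgam were under the filter. Of 12 erythrocyte and blood markers 8 had a probe set and 4 passed the filter, all with negative differences (median -0.30). The summed signal of the 8 ran from 21.1 to 54.9 in wild-type and from 11.7 to 47.5 in ABCC2-/- grafts. Most of it came from Hbb, with means of 32.4 and 27.7. The erythroid factors Klf1 and Gata1 were under the filter. The 11 lymphocyte markers with a probe set had a summed signal of 2.24 to 2.62 and 1.85 to 2.98, with 2 positive and 5 negative differences among 7 tested. The 5 tested glomerulus markers were all negative (median -0.15), with a summed signal of 16.3 to 21.2 in wild-type and 14.4 to 20.7 in ABCC2-/- grafts. Of the 10 proximal tubule markers 2 were positive and 8 negative (median -0.034), and of the 8 distal markers 4 were positive and 4 negative (median -0.054). At an unadjusted limma p under 0.05, 2 proximal tubule markers were lower, Slc5a2 at -0.38 (SE 0.11) and Cubn at -0.22 (SE 0.10). So was 1 each of the distal (Slc12a3), glomerulus (Nphs1) and erythrocyte markers (Slc4a1), against 4.63% of all probe sets. Of the myeloid markers 1, Mrc1, was higher, against 3.35%. Beside these sign counts, 45.35% of all tested probe sets had a positive difference.

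Likeness of pattern was measured as the Pearson correlation of log2 signal over the 12 arrays after the genotype means were removed, as a description over arrays that share their array sets. The 5 named genes most like Hmox1 were Ccdc91 (0.91), Syt11 (0.89), Josd1 (0.88), Zfp157 (0.86) and Asah2 (0.86). Their genotype differences lay between -0.54 and 0.31 on the log2 scale, against 0.97 for Hmox1. Ccdc91 alone was also among the 5 nearest to Hmox1 after the array set means were removed too. For Cpox, the other member with the lowest p, they were Reep5 (0.94), Chdh (0.93), Fbxl17l1 (0.91), Ilrun (0.89) and Dmac2 (0.89). All 5 were lower in array set 2, by 0.23 to 0.57 on the log2 scale, as Cpox was by 0.23. With the array set means removed the 5 nearest to Cpox held none of these genes.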

How the data were processed

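Total RNA of renal cortex was labelled with biotin and hybridised to Affymetrix 3′ expression arrays, per the labels' protocols. Each deposited value is the linear intensity of a probe set, named in the submitters' processing notes as MAS5 and GCOS output without versions. What the arrays were scaled to is not stated in the sources used here. The lowest deposited intensity, 0.01, held for 3.56% of values, which hides differences between dim probe sets.

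Of 31099 probe sets 57 controls were left out, values under the pooled 20th percentile (0.0694) were set to that value before taking log2. The 18625 probe sets at or above the 40th percentile of mean log2 signal were tested with limma 3.58.1 in R 4.3.3 (lmFit, eBayes with a mean-variance trend, Benjamini-Hochberg adjustment), and 6 arrays per genotype limit the precision. Intervals are 95% intervals of that fit. The fit was tested on simulated data with independent noise for each probe set and no array set difference. That test therefore does not cover the array set differences of these data. Platform annotation gave 20832 probe sets 1 symbol, 436 several, and 9780 were not listed. For 20764 of the probe sets with 1 symbol the Entrez number was matched to a RefSeq symbol, which was used for the lists. A listed gene was represented by its tested probe set with the highest mean.

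Named are the members, Abcc2, the 2 genes of lowest p in each pathway list and the 5 nearest in pattern to Hmox1 and Cpox. Akr1b8, Ephx1, Abcc4, Alas2, Tfrc, Nfe2l2, Keap1, Gclc, Txnrd1 and Nqo1 were added for their known roles after their values were seen. Of the marker lists, examples were likewise chosen with values seen. The members and lists were chosen with earlier results of these data known. Alternatives changed floor, filter, normalization, variance model, array weights and covariates, and left out arrays.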

Additional observations from a re-analysis of the deposited data

Results flagged for a closer look

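Blvra stood apart on 1 array in each genotype, where the gap from the highest graft to the next exceeded what Dixon's test allows for 6 values at the 95% level. In wild-type replicate 8 its signal was 5.02, against 3.47 to 3.94 in the other wild-type grafts. In ABCC2-/- replicate 9 it was 6.58, against 2.92 to 4.23 in the other ABCC2-/- grafts. Chance flags about 1 in 20 groups, and 20 groups were examined (the 8 members, Abcc2 and the Gapdh 3′ to 5′ ratio in each genotype).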

How the results depend on the processing

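Of 311 member differences recomputed under alternatives, 297 kept their direction and side of the threshold, 7 newly passed and 7 reversed. Over all probe sets 4 passed, against 2 with the filter at the 60th percentile (where Hmox1 was not tested), 112 with the array set block, 1190 in array set 2 alone and 531 with the component of within-genotype variation as a covariate. With 1 array left out 3 to 5 passed without the block. With the block 6 to 173 passed, and it was 6 without wild-type replicate 4, 6 or 7 or ABCC2-/- replicate 3. The number of members that passed, 0, became 1 with the block (Hmox1), 3 with the component (Hmox1, Hmox2 and Fech) and 1 in set 2 alone (Cpox), and with 1 array left out it was 0 to 1. The Hmox1 difference of 0.97 passed with the block (adjusted p = 0.0462) and the component (0.0243), whose values divide the arrays as the sets do, so these fits are not separate support. With 1 array left out it lay between 0.87 and 1.16, and under the other settings, those with all arrays or 1 array set, the adjusted p was 0.126 to 0.916. Urod reversed with median centring (-0.0022), with block and Gapdh ratio (-0.050) and in set 1 alone (-0.064), Blvra in set 2 alone (-0.043) and, within a range of -0.054 to 0.207 with 1 array left out, without ABCC2-/- replicate 9, and Blvrb in set 2 alone (0.080). The cause was not tested. The fits with the block less 1 array were chosen after seeing the data. No paired analysis was possible because the genotypes share only 1 replicate number. The signal of Hmox1 was dim, with a mean log2 value of -0.95, and whether this limits its precision was not tested.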
